A study of Mus musculus with 48 samples.

Results

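DNA methylation in the mouse embryo is set by a small group of genes, and 10 of them were followed here in single inner cell mass (ICM) cells of the blastocyst. They are Dnmt1, Uhrf1, Dnmt3a, Dnmt3b, Dnmt3l, Tet1, Tet2, Tet3, Dppa3 and Zfp57, chosen by name, and each symbol matched 1 of the 49671 Ensembl genes in the deposited table. The cells came from E3.75 blastocysts of 3 Pdgfra H2B-GFP/+ embryos, from crosses of reporter mice to F1 hybrids (C57BL/6JxCBA/J), and no embryo was treated. The reporter is a nuclear histone fused to green fluorescent protein targeted to 1 copy of the Pdgfra gene, so all cells carried it, and embryos with a salt-and-pepper pattern of it were picked. ICMs were freed of trophectoderm by immunosurgery, in which antibody and complement lyse the outer cells, and each of 48 cells was sequenced by Smart-seq2. Of these, 25 fell on the branch of presumptive epiblast (pEPI) and 23 on that of presumptive primitive endoderm (pPrE) of the dendrogram drawn by the study from the cells' own expression.

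The methyl group on cytosine sits mainly at CG dinucleotides. DNMT1 copies it to the new strand after replication, brought there by UHRF1, while DNMT3A and DNMT3B place it on unmethylated DNA with the help of DNMT3L, a relative without catalytic activity. TET enzymes oxidise the methyl group and so open a path to its removal, DPPA3 (also named STELLA) shields the maternal genome in the zygote and keeps UHRF1 from chromatin, and ZFP57 holds methylation at imprinted regions through TRIM28. The ICM lies near the low point of genome methylation between fertilisation and implantation, after which de novo methylation refills the epiblast genome to a higher level than the extraembryonic lineages.

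Each cell is a sample of its own and the labels do not say which embryo it came from, so the cells were treated as 1 sample and no p-value was computed from them. Cells held 1718970 to 7342785 counts and between 9202 and 11547 genes with a count. Levels are given as FPKM, which are counts scaled to the length of the gene model and to library size, and differences as the log2 ratio of mean FPKM in pPrE over pEPI, with an approximate 95% interval that covers counting error only. The branches matched their markers: Nanog averaged 315 FPKM in pEPI and 43.7 in pPrE cells, and Gata4 averaged 5.25 and 52.9. All 6 pPrE markers that passed the expression filter, of 7 fixed, were at least 2-fold higher in pPrE cells, as were 4 of 7 pEPI markers in pEPI cells. The pEPI markers Pou5f1 (log2 ratio -0.10), Esrrb (-0.71) and Tdgf1 (-0.86) were within 2-fold. The branches were drawn from the same cells' expression, so the match with markers is descriptive. Of the trophectoderm markers, Krt8 had counts in 46 cells (mean 34.3 FPKM), Eomes in 22, Krt18 in 13, Gata3 in 9, Elf5 and Hand1 in 5 each and Cdx2 in 3. The summed level of the list of 7 had a median of 31.02 FPKM in pEPI (2.71 to 173) and 35.4 FPKM in pPrE cells (0.256 to 104). Of the 3 that passed the expression filter, Krt18 was at least 2-fold higher in pEPI cells (log2 ratio -1.17), where 7.72% of all genes compared were. Krt8 (-0.52) and Eomes (0.31) were within 2-fold. Counts of 4 Y-linked genes split the wells into 29 cells with at least 100 such counts and 19 without, in 4 runs of neighbouring wells. Runs 1 (wells A1 to C2) and 3 (E1 to F3) had them, and runs 2 (C3 to D8) and 4 (F4 to F8) lacked them. What a run stands for is not in the labels, so values within the cells with Y-linked counts (17 pEPI, 12 pPrE) and those without (8 pEPI, 11 pPrE) are given beside the pooled ones. Between these sets the log2 ratios of Krt8 (-1.05 with, 0.89 without) and Krt18 (-3.07 and 0.96) changed sign.

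Of the 9 genes that passed the expression filter, 4 differed at least 2-fold between branches. The 3 de novo genes were higher in pPrE cells, as were 5.43% of all genes compared, and Zfp57 was higher in pEPI cells, as were 7.72%. The 250 bases upstream of the first start site of each of these 4 are shown to compare their CG content. The sequences are RefSeq's on GRCm38.p6, plus strand in all 4, read 5′ to 3′, with CG dinucleotides in capitals. They lie at chr12:3806730-3806979 (Dnmt3a), chr2:153649199-153649448 (Dnmt3b), chr10:78042037-78042286 (Dnmt3l) and chr17:37000913-37001162 (Zfp57).
Dnmt3a: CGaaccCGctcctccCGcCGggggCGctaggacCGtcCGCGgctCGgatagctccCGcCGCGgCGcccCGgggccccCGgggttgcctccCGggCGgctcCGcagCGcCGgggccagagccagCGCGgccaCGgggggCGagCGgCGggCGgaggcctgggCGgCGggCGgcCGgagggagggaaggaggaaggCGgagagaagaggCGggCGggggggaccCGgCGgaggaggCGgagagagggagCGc
Dnmt3b: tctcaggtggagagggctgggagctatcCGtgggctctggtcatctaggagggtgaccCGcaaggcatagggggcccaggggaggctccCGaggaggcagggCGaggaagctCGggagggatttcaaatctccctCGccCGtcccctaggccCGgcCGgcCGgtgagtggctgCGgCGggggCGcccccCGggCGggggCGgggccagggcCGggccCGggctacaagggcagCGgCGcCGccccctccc
Dnmt3l: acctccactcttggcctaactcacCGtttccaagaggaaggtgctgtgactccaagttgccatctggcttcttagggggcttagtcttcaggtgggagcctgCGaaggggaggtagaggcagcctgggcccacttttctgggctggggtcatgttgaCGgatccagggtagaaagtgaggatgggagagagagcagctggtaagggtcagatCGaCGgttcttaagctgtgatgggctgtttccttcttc
Zfp57: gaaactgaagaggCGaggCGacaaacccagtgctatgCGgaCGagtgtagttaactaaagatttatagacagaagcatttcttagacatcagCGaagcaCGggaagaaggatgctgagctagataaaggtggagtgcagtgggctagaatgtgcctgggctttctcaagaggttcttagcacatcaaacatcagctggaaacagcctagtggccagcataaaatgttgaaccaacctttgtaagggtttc
The Dnmt3a window held 38 CG dinucleotides, more than 98.1% of 32851 mouse promoter windows of the same length, and the Dnmt3b window held 21. Across the 3 Dnmt3a start sites, from 5′ to 3′, the windows held 38, 40 and 15, the last more than 72.7% of all windows. The Dnmt3l window held 5 and the Zfp57 window 6, while the median of all windows was 6. So the genes higher in pPrE had windows both rich and poor in CG. The letters AGATAA or TGATAA, a core bound by GATA factors, were counted on both strands. They occurred in 16.6% of all windows, once in each of the 3 Zfp57 start-site windows, and not in those of Dnmt3a, Dnmt3b or Dnmt3l. Promoter sequence was matched for 9 of the 10 genes. Which start site these cells used was not measured.

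**Figure D1:**
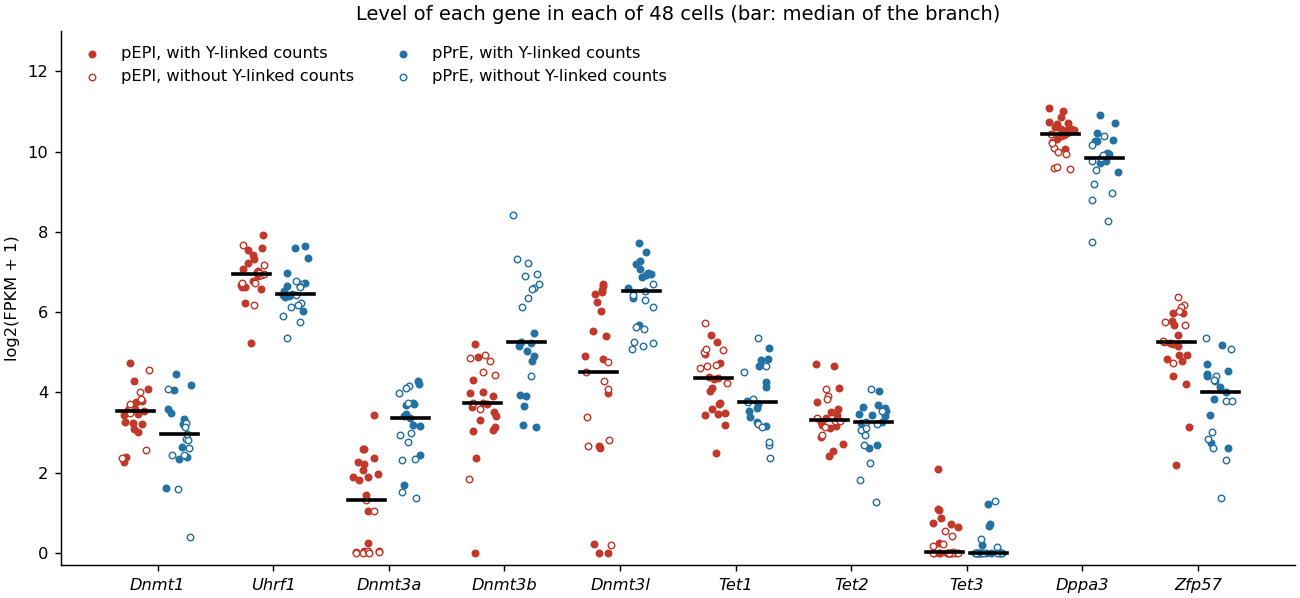
Level of each of the 10 genes, as log2(FPKM + 1) on the vertical axis, in each of 25 pEPI (red) and 23 pPrE cells (blue), with filled points for cells with Y-linked counts, open points for those without and black bars at branch medians. Dnmt3a, Dnmt3b and Dnmt3l sit higher in pPrE cells and Zfp57 higher in pEPI cells, while the branches overlap for each gene.

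The levels differed widely between genes. Averaged over 48 cells, Dppa3 stood at 1175 ± 443 FPKM (SD), above 99.8% of the 11193 genes that passed the expression filter, a mean log2(FPKM + 1) over 0.5. Uhrf1 followed at 114 ± 45.1 FPKM, then Dnmt3l at 64.2 ± 52.0, Dnmt3b at 42.04 ± 59.1, Zfp57 at 29.1 ± 20.5 and Tet1 at 18.8 ± 11.1 FPKM. Dnmt1 (9.66 ± 5.47 FPKM), Tet2 (9.62 ± 4.64) and Dnmt3a (5.55 ± 5.40) came next, and Tet3 averaged 0.293 ± 0.586 FPKM. In this order the gap between Dppa3 and Uhrf1 was the only one wider than the SD of both neighbours, and Dppa3 was above Uhrf1 in all 48 cells. Dnmt1 and Tet2 differed by 0.0460 FPKM, with Dnmt1 higher in 22 of 48 cells. The order differed between branches. In pEPI cells Zfp57 (41.2 FPKM) averaged above Dnmt3l (35.3), Tet1 (21.7) and Dnmt3b (14.8), and in pPrE cells Dnmt3l (95.6 FPKM) and Dnmt3b (71.6) averaged above Zfp57 and Tet1. The pEPI order of Zfp57 and Dnmt3l depended on the set of cells. In the 17 pEPI cells with Y-linked counts Dnmt3l averaged 45.8 and Zfp57 33.9 FPKM, and in the 8 without them 12.9 and 56.6 FPKM. The gene model matters to this scale, as the exons of Dnmt3a cover 16642 bases in union and 9685 in its longest transcript. With the longest transcripts, Tet2 (17.7 FPKM) passed Dnmt1 (12.1 FPKM) and the other ranks stayed.

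Reads were found in every cell for 6 genes, Dnmt1, Uhrf1, Tet1, Tet2, Dppa3 and Zfp57. Dnmt3b had counts in 47 cells, Dnmt3l in 46 and Dnmt3a in 45, and each of the cells without a count was pEPI. These were A3 for Dnmt3b, A2 and A4 for Dnmt3l, and C3, C7 and D6 for Dnmt3a, where 3 counts, the number that a count of 0 allows, would have been 0.0435 to 0.271 FPKM. Tet3 had counts in 21 of 48 cells (exact binomial interval 29.5 to 58.8%, which treats cells as independent draws and covers no difference between embryos), with a median of 0 counts, and did not pass the expression filter.

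Of the 9 genes that passed, 3 were at least 2-fold higher in pPrE cells (Dnmt3a, Dnmt3b and Dnmt3l), against 5.43% of the 11193 genes compared, and 1 was at least 2-fold higher in pEPI cells (Zfp57), against 7.72%. The median log2 ratio of the 9 was -0.40, and that of all genes was 0.01. Among the 4, the difference of means exceeded the SD of either branch for Dnmt3a, Dnmt3l and Zfp57, and that of pEPI cells alone for Dnmt3b. The other 5 lay between -0.52 and -0.32, all lower in pPrE cells. The branches rest on these cells' own expression, which the 10 genes are part of, so the counts are descriptive. Grouping the cells by the sign of the first principal component of 1000 variable genes, without the 10 genes and the markers, gave the same branch for all 48 cells. That component comes from the same cells as the dendrogram, so the match is not independent support for the branches.

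**Figure D2:**
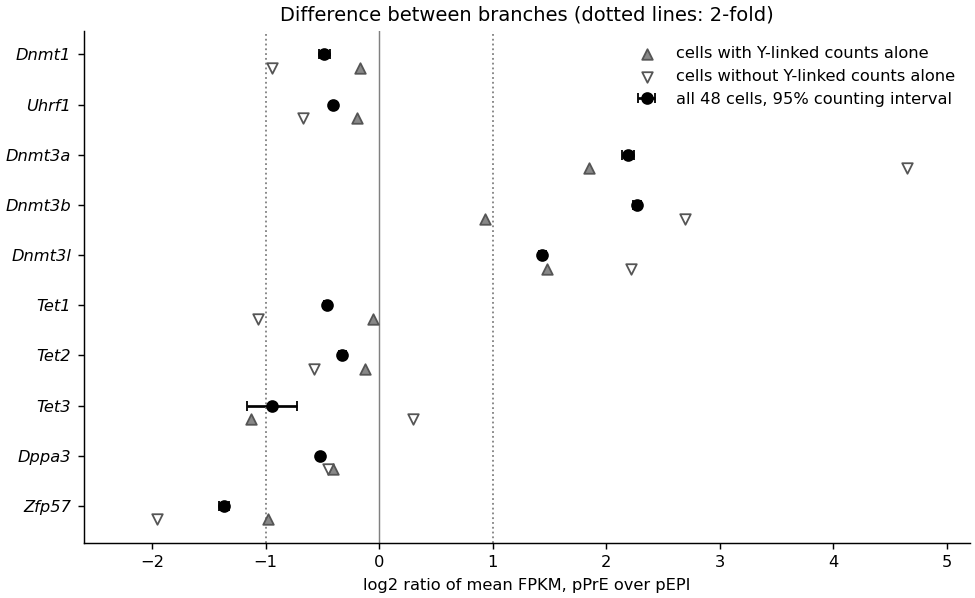
Log2 ratio of mean FPKM in pPrE over pEPI cells for the 10 genes, over all 48 cells (black, with the approximate 95% counting interval), in cells with Y-linked counts (filled triangles) and in cells without (open triangles), with dotted lines at 2-fold. Dnmt3a lies at 2.19, Dnmt3b at 2.27, Dnmt3l at 1.44 and Zfp57 at -1.36, and the ratios of Dnmt1, Uhrf1, Tet1 and Tet2 lie nearer to 0 in cells with Y-linked counts than in those without.

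The maintenance pair was present in both branches with modestly lower means in pPrE cells. Dnmt1, the maintenance methyltransferase, ranged from 3.80 to 25.5 FPKM in pEPI cells (median 10.5) and from 0.318 to 20.9 FPKM in pPrE cells (median 6.75). The ranges largely coincide, although 21 of 25 pEPI cells were above the pPrE median. The mean was 11.2 ± 5.35 FPKM in pEPI and 8.01 ± 5.22 in pPrE cells, a log2 ratio of -0.48 (-0.53 to -0.43), and the difference was smaller than either SD. It was -0.17 in cells with Y-linked counts and -0.94 in those without. Uhrf1, whose protein recruits DNMT1 to hemimethylated DNA, ranged from 36.9 to 242 FPKM in pEPI cells (median 122) and from 40.1 to 199 in pPrE cells (median 87.3). The pPrE range lies inside the pEPI range, 2 pEPI cells were above every pPrE cell, and 22 of 25 pEPI cells were above the pPrE median. Its means were 129 ± 45.1 and 97.1 ± 39.9 FPKM, a log2 ratio of -0.40 (-0.42 to -0.39), again within the SD. It was -0.19 in cells with and -0.67 in cells without Y-linked counts. Uhrf1 exceeded Dnmt1 in all 48 cells.

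The 3 de novo genes all had higher means in pPrE cells. Dnmt3a, a de novo methyltransferase, ranged from 0 to 9.86 FPKM in pEPI cells (median 1.496) and from 1.58 to 18.6 FPKM in pPrE cells (median 9.20). All 23 pPrE cells were above the pEPI median, 13 pEPI cells were below every pPrE cell, and 10 pPrE cells were above every pEPI cell. The means were 2.05 ± 2.37 and 9.36 ± 5.21 FPKM, a log2 ratio of 2.19 (2.14 to 2.25). It was 1.85 in cells with Y-linked counts and 4.65 in those without. The wider gap in the latter came with a lower pEPI level, 0.330 ± 0.601 FPKM in 8 cells without Y-linked counts and 2.86 ± 2.48 in 17 with them, whereas pPrE cells averaged 8.30 ± 5.75 and 10.3 ± 4.71 FPKM.

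Dnmt3b, the second de novo enzyme, ranged from 0 to 35.6 FPKM in pEPI cells (median 12.3) and from 7.83 to 340 FPKM in pPrE cells (median 37.3). In 13 of 23 pPrE cells it was above every pEPI cell, while the other 10 overlapped the pEPI range. The means were 14.8 ± 9.14 and 71.6 ± 75.0008 FPKM, a log2 ratio of 2.27 (2.24 to 2.31). One cell, D5, held 16.3% of all pPrE counts, and without it the ratio was 2.004. The excess lay mostly in cells without Y-linked counts: their 11 pPrE cells averaged 123 ± 81.5 FPKM (20.2 to 340), and the 12 pPrE cells with Y-linked counts averaged 24.6 ± 12.7 FPKM (7.83 to 43.45). The 8 highest cells were all pPrE cells without Y-linked counts, the lowest of them at 94.3 FPKM. In pEPI cells Dnmt3b averaged 19.02 ± 9.52 FPKM without and 12.8 ± 8.53 FPKM with Y-linked counts. The branch ratio was 2.69 in cells without and 0.94 in cells with Y-linked counts, just short of 2-fold in the latter.

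Dnmt3l, the catalytically inactive partner of DNMT3A and DNMT3B, ranged from 0 to 103 FPKM in pEPI cells (median 21.9) and from 32.8 to 210 FPKM in pPrE cells (median 90.5). Here 16 of 25 pEPI cells were below every pPrE cell and 10 pPrE cells were above every pEPI cell. The means were 35.3 ± 35.8 and 95.6 ± 49.0 FPKM, a log2 ratio of 1.44 (1.41 to 1.47). It was 1.48 in cells with and 2.22 in cells without Y-linked counts. Its levels went the other way from Dnmt3b between these cells: pPrE cells averaged 128 ± 42.7 FPKM with and 60.3 ± 25.6 FPKM without Y-linked counts, and pEPI cells 45.8 ± 38.97 and 12.9 ± 9.04 FPKM.

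As a share of the summed FPKM of the 3 catalytic genes Dnmt1, Dnmt3a and Dnmt3b, computed in each cell, the composition differed between branches. Dnmt1 made up 41.9 ± 16.98% in pEPI and 15.6 ± 14.02% in pPrE cells, and was over 50% in 8 pEPI cells and in no pPrE cell. Dnmt3b made up 50.1 ± 20.2% and 68.6 ± 20.4%, and Dnmt3a 7.97 ± 9.18% and 15.8 ± 10.9%. These shares pool cells with and without Y-linked counts. In pPrE cells the means with and without them were 24.6 and 123 FPKM for Dnmt3b. They were 10.3 and 8.30 FPKM for Dnmt3a and 9.72 and 6.14 FPKM for Dnmt1. By exon-union lengths, Dnmt1 was above Dnmt3a in all 25 pEPI cells and in 10 of 23 pPrE cells. The exons of Dnmt3a cover 16642 bases in union and 9685 in its longest transcript, and those of Dnmt1 7377 and 5870. The longest transcripts would thus raise Dnmt3a more than Dnmt1. Among the de novo genes Dnmt3l was the largest in most cells, over 50% of their sum in 16 pEPI and 14 pPrE cells. By means its lead held only in cells with Y-linked counts. There Dnmt3l averaged 128 and Dnmt3b 24.6 FPKM in pPrE cells, and 45.8 and 12.8 FPKM in pEPI cells. Without Y-linked counts the means were 60.3 and 123 FPKM in pPrE cells, and 12.9 and 19.02 FPKM in pEPI cells. The shares and counts of cells were not computed with the longest transcripts, so they hold for exon-union lengths only.

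**Figure D3:**
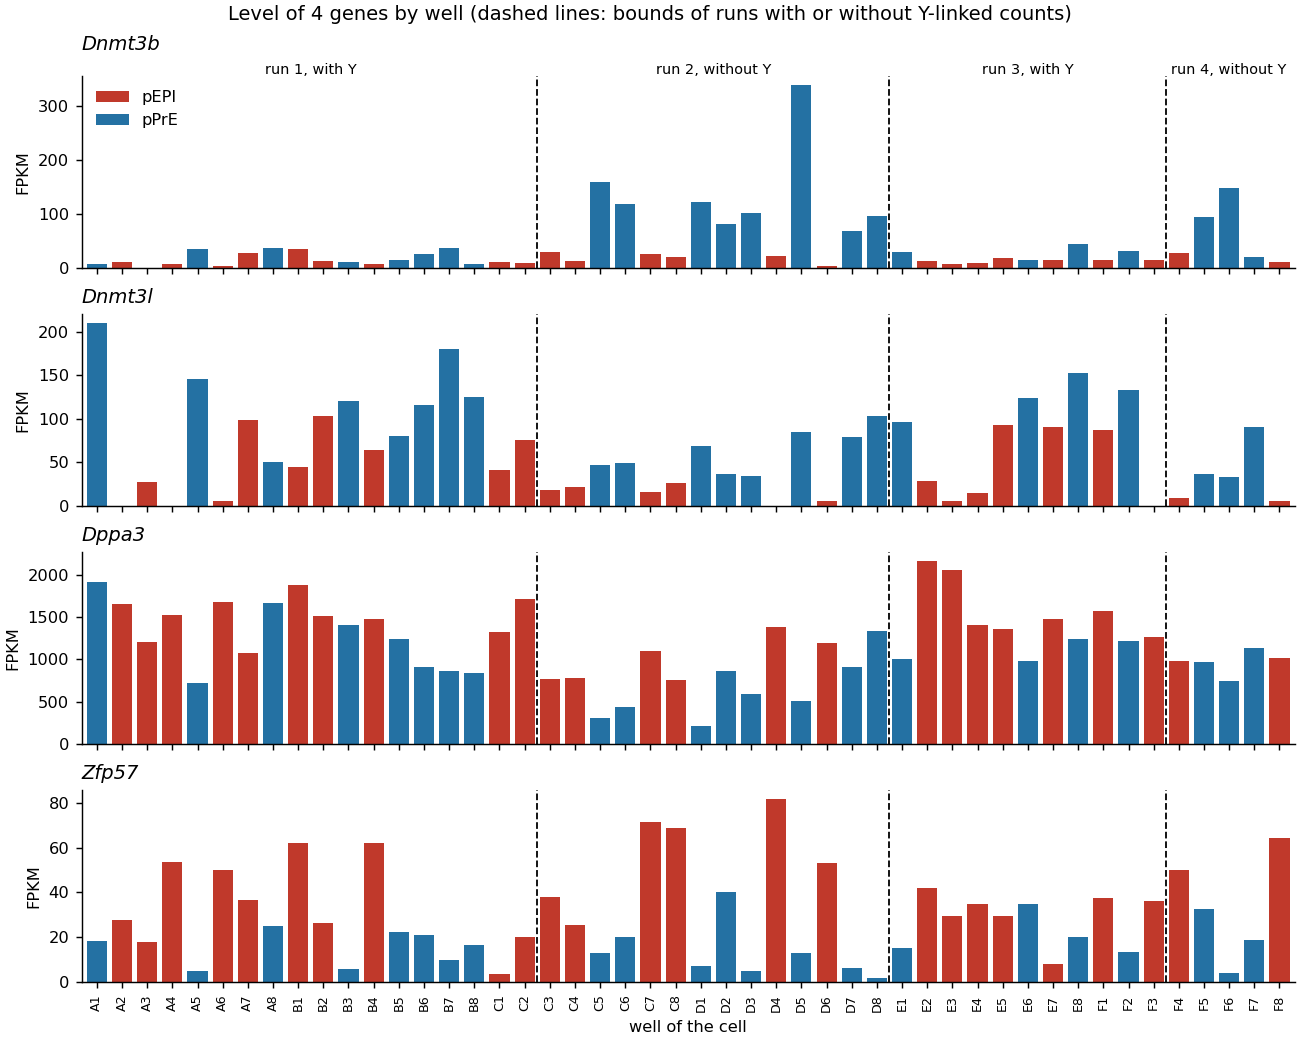
FPKM of Dnmt3b, Dnmt3l, Dppa3 and Zfp57 on linear vertical axes in the 48 cells in order of their wells, pEPI in red and pPrE in blue, with dashed lines between runs of wells with and without Y-linked counts. High Dnmt3b bars are pPrE cells of runs 2 and 4, where Dnmt3l averages 42.2 and 35.1 FPKM over both branches, against 82.6 and 75.1 FPKM in runs 1 and 3.

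Within single runs the pPrE level of Dnmt3b averaged 22.1 ± 12.99 FPKM in run 1 (8 cells), 136 ± 86.98 in run 2 (8 cells), 29.5 ± 12.1 in run 3 (4 cells) and 87.7 ± 64.45 in run 4 (3 cells). Both runs without Y-linked counts were thus higher than both runs with them. The branch ratio was above 0 in each run, at 0.81, 2.85, 1.17 and 2.16. For Dnmt3a the 4 ratios were 2.32, 5.02, 1.44 and 3.89, and for Dnmt3l 1.49, 2.10, 1.47 and 2.79. Run 4 holds 2 pEPI cells and 3 pPrE cells, which limits its values. Which embryo or batch a run stands for, and its part in these levels, was not tested.

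Tet1 and Tet2 had somewhat lower means in pPrE cells, by less than the SD of either branch. Tet1, a dioxygenase that oxidises 5-methylcytosine, ranged from 4.58 to 52.2 FPKM in pEPI cells (median 19.7) and from 4.14 to 40.1 in pPrE cells (median 12.6). The ranges largely coincide, with 17 of 25 pEPI cells above the pPrE median. The means were 21.7 ± 11.7 and 15.8 ± 9.66 FPKM, a log2 ratio of -0.46 (-0.48 to -0.43), and the difference was below both SDs. In cells with Y-linked counts the ratio was -0.05, and in those without it was -1.07, past 2-fold. By run it was -0.22, -1.30, 0.23 and -0.75, so in run 3 (7 pEPI and 4 pPrE cells) the pPrE mean was the higher.

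Tet2, a second dioxygenase of the family, ranged from 4.35 to 25.3 FPKM in pEPI cells (median 8.89) and from 1.41 to 15.9 FPKM in pPrE cells (median 8.59). The medians nearly coincide, and the log2 ratio of means, -0.32 (-0.36 to -0.29), stands beside 4 pEPI cells above every pPrE cell. The ratio was -0.13 in cells with and -0.57 in cells without Y-linked counts. By exon-union lengths, Tet1 made up 64.1 ± 12.3% of the summed TET level in pEPI and 61.3 ± 14.4% in pPrE cells. On that scale it was above Tet2 in 40 of 48 cells. The Tet2 exons cover 16870 bases in union and 9179 in its longest transcript, and those of Tet1 15457 and 14369. With the longest transcripts Tet1 averaged 20.3 and Tet2 17.7 FPKM, so the lead of Tet1 depends on the gene model. The shares and the count of cells were not computed on that scale. Tet3, the TET gene of the oocyte and zygote, was detected in 13 of the 25 pEPI cells and in 8 of the 23 pPrE cells, with maxima of 3.29 and 1.46 FPKM. Its log2 ratio of -0.94 (-1.16 to -0.72) was -1.12 in cells with and 0.30 in cells without Y-linked counts.

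The protectors were both higher in pEPI cells, by different amounts. Dppa3 ranged from 759 to 2169 FPKM in pEPI cells (median 1385) and from 214 to 1920 FPKM in pPrE cells (median 911), and 22 of 25 pEPI cells were above the pPrE median. The means were 1374 ± 375.1 and 958 ± 414 FPKM, a difference above both SDs but short of 2-fold, with a log2 ratio of -0.52 (-0.53 to -0.51). The ratio was -0.41 with and -0.45 without Y-linked counts, and -0.33, -0.63, -0.54 and -0.07 by run. The level itself was 1393 ± 369 FPKM in the 29 cells with and 842 ± 327 FPKM in the 19 cells without them.

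Zfp57, the KRAB zinc finger protein of imprinted regions, ranged from 3.58 to 81.8 FPKM in pEPI cells (median 37.3) and from 1.60 to 39.99 FPKM in pPrE cells (median 15.1). In 23 of 25 pEPI cells it was above the pPrE median, and 11 pEPI cells were above every pPrE cell. The means were 41.2 ± 20.2 and 16.004 ± 10.3 FPKM, a log2 ratio of -1.36 (-1.41 to -1.32). The ratio was -0.97 in cells with Y-linked counts, just short of 2-fold, and -1.95 in those without. Between the sets the pEPI cells differed more, and averaged 33.9 ± 16.8 FPKM with and 56.6 ± 18.6 FPKM without Y-linked counts, while pPrE cells averaged 17.3 ± 8.44 and 14.6 ± 12.3 FPKM.

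Within the cells with Y-linked counts alone, 2 of the 9 genes (Dnmt3a and Dnmt3l) were at least 2-fold higher in pPrE, where 6.42% of all genes compared were, and none was in pEPI, where 9.94% were. Within the cells without them, Dnmt3a, Dnmt3b and Dnmt3l were at least 2-fold higher in pPrE, beside 12.2% of all genes compared, and Tet1 and Zfp57 in pEPI, beside 11.9%. The direction of each of the 9 genes was the same in both sets, though Tet1 was at only -0.05 in cells with Y-linked counts. The share of all genes compared that kept their direction is not given here, so this is descriptive.

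Of the 9 genes, Dnmt3b had the widest spread between cells for its level. Against a cubic curve of the squared coefficient of variation (CV squared) on the mean, fitted over all genes compared, Dnmt3b lay 2.29 above on the natural log scale, and 0.858% of genes lay further above. Dnmt3l lay 1.48 above (4.76% of genes further) and Dppa3 1.08 above (9.92%). Zfp57 (0.63), Uhrf1 (0.43) and Dnmt3a (0.10) lay closer to the curve, whereas Dnmt1 (-0.61), Tet1 (-0.05) and Tet2 (-0.93) lay below it. So 6 of 9 genes were above the curve, as were 47.99% of all genes. With branch means removed Dnmt3b stayed 2.09 above and Dnmt3l 1.14, while Dnmt3a moved to -0.48, below the curve. Means of the runs or Y-linked sets were not removed, so this spread includes differences between them. In pPrE cells Dnmt3b averaged 24.6 ± 12.7 FPKM with and 123 ± 81.5 FPKM without Y-linked counts.

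Between pairs of these genes the correlations over 48 cells, as descriptions of log2(FPKM + 1) in cells that share branches, runs and library preparation, were mostly weak. The strongest were negative. Dnmt3b and Dppa3 had r = -0.63 (Spearman -0.62), and the 5 cells with the lowest Dppa3, at up to 588 FPKM, were all among the 8 cells with the highest Dnmt3b. With branch means removed r was -0.50, and with the means of branch and run removed it was -0.21. Among pPrE cells alone r was -0.65, and among pEPI cells alone -0.20. The relation was thus about as close within pPrE cells as over all cells, and weaker within pEPI cells and once run means were removed. Dnmt3a and Zfp57 also had r = -0.63 (Spearman -0.68), with -0.39 after removing branch means and -0.36 after removing branch and run means. It was -0.53 among pEPI cells and -0.21 among pPrE cells. Dnmt3a and Dnmt3l had r = 0.51, which was 0.06 with branch and run means removed. Tet1 and Tet2 had r = 0.40, and 0.30 after the same step.

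**Figure D4:**
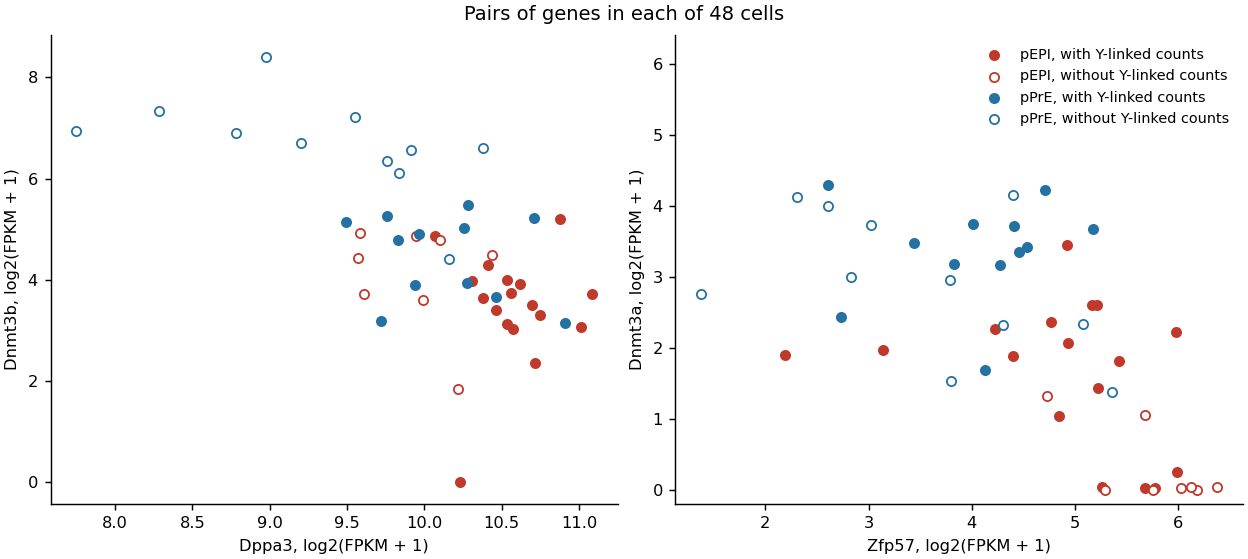
Dnmt3b against Dppa3 (left) and Dnmt3a against Zfp57 (right) in each of 48 cells, all axes in log2(FPKM + 1), pEPI in red and pPrE in blue, filled with and open without Y-linked counts. The cells with the highest Dnmt3b and lowest Dppa3 are pPrE cells without Y-linked counts, and the cells with Dnmt3a near 0 are pEPI cells.

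Along the balance of Nanog to Gata6, taken as the log2 ratio of their FPKM + 1 in each cell, Dnmt3a followed most closely, with r = -0.76 (Spearman -0.74). Zfp57 had r = 0.61, Dnmt3l -0.60 and Dnmt3b -0.44, while Dnmt1 (0.16) and Uhrf1 (0.13) hardly followed it. Against the mean level of 18 S phase genes, a measure of replication, Uhrf1 had r = 0.35 and Dnmt1 0.19. None of the 18 S phase genes and none of 10 mitosis genes was 2-fold apart between branches. Over all genes compared, 7.72% were at least 2-fold higher in pEPI and 5.43% in pPrE cells. The mean log2 level of the mitosis list was 4.39 ± 0.84 in pEPI and 4.69 ± 0.72 in pPrE cells. That of the S phase list was 4.84 ± 0.36 and 4.70 ± 0.44.

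For each of the 9 genes, the 3 genes with the highest Pearson r over the 48 cells were listed. Those of Dnmt3a included Snx2 (0.78) and Pdgfra (0.76), and Dnmt3l was followed by Gdpd5 (0.73), Snx2 (0.67) and Lamb1 (0.65). Pdgfra, the receptor that carries the reporter, and Lamb1, a laminin chain, mark primitive endoderm. Dnmt3b was followed by F2r (0.79), Foxq1 (0.72) and Dok2 (0.71). F2r, a thrombin receptor, averaged 0.728 FPKM in pEPI and 31.9 FPKM in pPrE cells, and kept r = 0.65 with Dnmt3b after branch means were removed. Zfp57 was followed by Fn1 (0.74), Etv5 (0.69) and Spic (0.66). Etv5, a transcription factor induced by ERK signalling, averaged 62.4 FPKM in pEPI and 20.98 FPKM in pPrE cells.

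Dppa3 was followed by Rogdi (0.83), Dppa3-ps (0.81) and Khdc3 (0.80), the last a maternally supplied oocyte factor. Uhrf1 was followed by Gm5648 (0.76), Trmu (0.54) and Olfr1459 (0.53). Dppa3-ps and Gm5648 are pseudogenes that share 59.1% and 60.6% of their 31-base words with transcripts of Dppa3 and Uhrf1, and hold 1321 and 511 counts against 206670 and 96278, so reads cannot be told apart over those stretches. Dnmt3c, a rodent copy of Dnmt3b with 31.9% of its words in common, held 1 count in all. Dnmt1 (Wbp4, Tinf2 and Usp48), Tet1 (D230025D16Rik, Uggt1 and Stk38) and Tet2 (Cdc5l, Eif4a2 and Prps1) had closest genes with r between 0.52 and 0.63.

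Of 50 partner genes fixed as a list, 43 passed the expression filter. Of these, 1 was at least 2-fold higher in pEPI cells, where 7.72% of all genes compared were. In pPrE cells 1 was, beside 5.43% of all genes compared, and 41 were in neither. The median log2 ratio of the 43 was -0.07. Prdm14, a repressor of de novo methyltransferase genes in embryonic stem cells, was detected in 17 of the 25 pEPI cells and in 6 of the 23 pPrE cells. It averaged 13.6 ± 17.8 FPKM in pEPI cells (median 6.22, highest 70.2) and 1.32 ± 3.52 FPKM in pPrE cells (median 0, highest 12.3), a log2 ratio of -3.37. The ratio was -3.21 in cells with and -3.86 in cells without Y-linked counts. Over the 48 cells Prdm14 had r = -0.50 with Dnmt3a, -0.46 with Dnmt3l and -0.15 with Dnmt3b. Within pEPI cells these were -0.28, -0.27 and 0.42, so its relation with Dnmt3b had another sign there. Gadd45b, a stress gene linked to demethylation, was the 1 higher in pPrE cells (log2 ratio 1.15), but had counts in 11 cells, and 1 cell held 38.6% of its pPrE counts.

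Within the sub-lists, the most abundant gene of each was close between branches, except among regulators in pluripotent cells. Pcna, the replication clamp, averaged 133 FPKM with a log2 ratio of -0.02. Trim28, the corepressor bound by ZFP57, averaged 99.95 FPKM (-0.27), Parp1 97.6 (-0.42), Mat2a, which makes the methyl donor, 54.9 (0.10), and Mbd3, of the NuRD complex, 26.97 (0.09). Ogt, which binds TET proteins, averaged 15.8 FPKM (-0.08) and the histone demethylase Kdm1a 6.72 (0.17). Dppa2, a chromatin factor of pluripotent cells, averaged 444 ± 161 FPKM in pEPI and 224 ± 101 FPKM in pPrE cells (-0.99), just within 2-fold. 

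**Figure D5:**
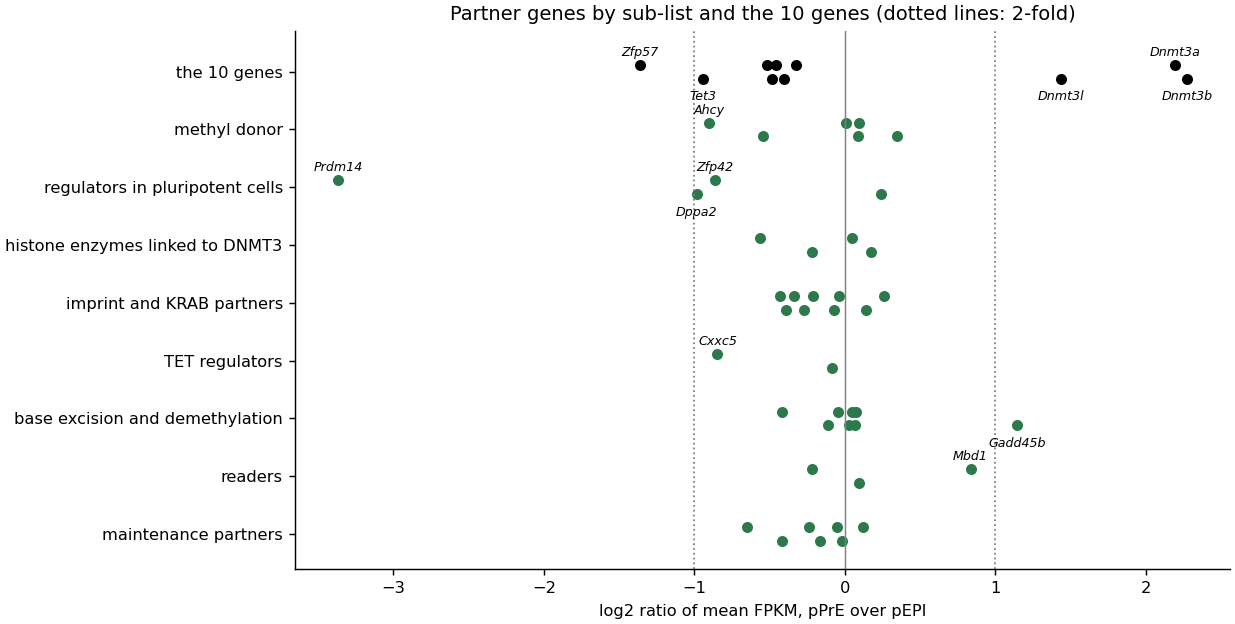
Log2 ratio of mean FPKM in pPrE over pEPI cells for 43 partner genes that passed the expression filter, by sub-list (green), and for the 10 genes (black), with dotted lines at 2-fold and names at ratios beyond 0.8 in either direction. Prdm14 and Gadd45b lie outside the lines, and Dnmt3a, Dnmt3b, Dnmt3l and Zfp57 do among the 10.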

How the data were processed

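Raw counts per gene were made by the authors, who counted alignments to mm10 with htseq-count on Ensembl 87, and were deposited without normalization. The submitters' processing notes name STAR and HTSeq, without versions, and a strand setting is not given in the sources used here. Symbols and exon-union lengths came from GENCODE M21. FPKM used library sizes by the median of ratios over genes counted in every cell. Genes with mean log2(FPKM + 1) above 0.5 were compared (11193), and a call was a ratio of at least 2-fold. The branches were read by eye from the published dendrogram. The 48 cells are 1 sample, so no p-value was computed. Each log2 ratio has an approximate counting interval, placed around the ratio of means with the width of the exact interval of the summed counts. Smart-seq2 reads carry no molecular identifiers and are not independent molecules, so intervals cover counting error only. The 10 genes, the lists and the comparisons were chosen with earlier results of these data known. Named were all 10 genes, partner genes past 2-fold or most abundant in their sub-list, and the 3 genes most alike to each of the 10 that passed the filter, of which 1 is not reported here. Genes named as markers or for shared sequence are others. The motif was chosen after the values were seen. Python 3.11.15 with scipy 1.17.1 and pandas 2.3.3, and edgeR 4.0.16 for TMM factors as an alternative, were used, and scripts were tested on simulated data.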

Additional observations from a re-analysis of the deposited data

How the results depend on the processing

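Each log2 ratio was recomputed under 23 alternatives that could move it (22 for Tet3), of library size, averaging, thinning to 1718970 counts, grouping and cells left out. Gene length cancels in these ratios, and grouping by the first principal component gave the same cells, so both are left out of that number. Those that leave out each run of wells or take the run as a block, and detection within the Y-linked sets, were added after seeing the data. The sign held in all of them for each of the 9 genes above the expression filter, and Tet3 changed sign in cells without Y-linked counts (0.30). Dnmt3a (1.70 to 4.65) and Dnmt3l (1.01 to 2.81) stayed past 2-fold in all 23, and Dnmt3b (0.94 to 2.69) and Zfp57 (-1.95 to -0.97) in 22, the exception being cells with Y-linked counts alone. In those cells the number of genes higher in pEPI was 0, and in cells without them it was 2, through Tet1. The number higher in pPrE stayed within 1.5-fold of 3 in each alternative, and leaving out any well letter or run of wells gave 1 gene higher in pEPI and 3 in pPrE. Grouping by Nanog against Gata6 put 39 of 48 cells in the same group. It brought the ratio nearer to 0 for every gene except Tet1 (-0.48 against -0.46), to 1.01 for Dnmt3l and -0.08 for Uhrf1. Of the 27 genes listed as most alike, 10 were listed again by Spearman correlation and 13 with branch means removed, so those names depend on the measure. The number of genes with a count in all 48 cells, main value 6, and of those above the variability curve, also 6, stayed within 1.5-fold under their alternatives. Over all genes, the numbers past 2-fold (864 higher in pEPI, 608 in pPrE) were 408 and 289 on log2(FPKM + 1), 422 and 290 on that scale with the run as a block, 1332 and 1365 in cells without Y-linked counts, 1705 and 1338 at a fold of 1.5, and 5088 and 4186 without the expression filter. In pPrE they were 993 on log2(FPKM + 0.1), 1223 by medians and 1004 without the cell holding the most counts of a gene in pEPI, and in pEPI 1322 without that in pPrE. The labels do not assign the cells to the 3 embryos, which limits all of these values. With the run of wells as a block, the differences of mean log2(FPKM + 1) were 2.10 for Dnmt3a, 1.66 for Dnmt3b, 2.50 for Dnmt3l and -1.41 for Zfp57, against 1.94, 1.86, 2.32 and -1.38 without it. No pairing by replicate number was possible, since the labels give none shared between the branches.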
